A study of Mus musculus with 3 samples.

Results

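The matrix metalloproteinases (MMPs), the ADAMTS proteases with their ADAMTS-like relatives, and the tissue inhibitors of metalloproteinases (TIMPs) were described in mouse heart under pressure overload with and without dapagliflozin. The genes were taken by symbol (Mmp, Adamts and Timp followed by their numbers, ADAMTS-like genes included) among the probes that name exactly 1 gene. This gave 48 of the 19505 genes measured, namely 21 MMPs, 18 ADAMTS proteases, 5 ADAMTS-like genes and 4 TIMPs, each read by 1 probe. Expression was measured with 3 Affymetrix arrays, 1 for each group of wild-type C57BL/6 mice labelled as male and 10 weeks old. The study's methods give a younger age for the mice when obtained, and 12 weeks of treatment followed before the RNA was taken. The age at which the hearts were taken is not given. The sham group had the thread removed without tying it. The AAC group had abdominal aortic constriction, a narrowing of the abdominal aorta that makes the heart pump against a higher pressure, and no drug. By the study's methods, the sham and AAC groups received saline for 12 weeks. The AAC + DAPA group had the same constriction followed by dapagliflozin, an inhibitor of the sodium-glucose co-transporter SGLT2, at 25 mg/kg per day in the drinking water for 12 weeks. The sources used here do not state whether the RNA of an array came from 1 heart or from several.

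With 1 array per group no difference has a replicate check, no test was possible, and all values below describe these arrays. Values are the deposited log2 expression, so that a difference of 1 is 2-fold, and differences are counted from 1.5-fold upward, the threshold the study used. The 10 cardiomyocyte markers lay between 15.17 and 19.61 on all 3 arrays, as in heart muscle, while the 6 epicardial and mesothelial markers stayed at or below 4.09. The 95th percentile of 1091 olfactory receptor genes, which few tissues outside the nose use, was 5.36 on the sham array, 5.45 on the AAC array and 5.33 on the AAC + DAPA array, and served as a reference for low signal. Probes of the same gene (55 genes with 122 probes) differed in their log2 difference with an SD of 0.31 for AAC against sham, 0.26 for AAC + DAPA against AAC and 0.19 for AAC + DAPA against sham. This is a guide to spread between probes, not between mice, and no member of the family has more than 1 probe.

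The sham and AAC + DAPA arrays went against their labels. All mice were labelled male, but of 4 Y-linked genes measured, 3 gave signal on the AAC array and on no other. Eif2s3y, a Y-linked translation factor subunit, was 2.50 on the sham array, 11.71 on the AAC array and 2.72 on the AAC + DAPA array. Uty, a Y-linked demethylase family gene, was 3.09, 10.65 and 2.96 in the same order, and Kdm5d was 2.97, 6.39 and 2.81. On these 3 genes the AAC array fits its label and the other 2 do not. Usp9y, the remaining Y-linked gene, was 3.03, 3.29 and 3.03, low on every array. The AAC array therefore differs from both others in Y-linked signal as well as in surgery or drug, and these cannot be told apart. Both arrays of AAC + DAPA against sham lack the Y-linked signal, so that comparison is alike in this respect but rests on the 2 arrays that do not match their labels. No comparison is free of them, since each uses at least 1 of the 2. Timp1 was the only X-linked gene among the 48. The AAC array enters 2 of the 3 comparisons, and the sham array and the AAC + DAPA array also enter 2 each, so the comparisons are not independent.

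MMPs are zinc-dependent endopeptidases, mostly secreted as inactive precursors, that cleave collagens, elastin, laminins and other components of the extracellular matrix. ADAMTS proteases are secreted relatives with thrombospondin repeats. Several of them cleave the large proteoglycans versican and aggrecan, while the ADAMTS-like proteins share these repeats but lack the protease domain. TIMPs bind the active site of the proteases and block it. In the heart this system sets the turnover of the interstitial matrix, and it is studied in pressure overload because fibrosis and dilatation involve matrix turnover.

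Promoter sequences were looked at because several MMP genes lie side by side on chromosome 9, in the RefSeq order Mmp13, Mmp12, Mmp1b, Mmp3, Mmp1a, Mmp10, Mmp8, Mmp20 and Mmp7 (Mmp27, between Mmp8 and Mmp20, was not analysed here). Inducible MMP genes are known for a binding motif of the transcription factor AP-1 close to a TATA box. The 100 bases before the RefSeq start (GRCm38.p6) are shown 5′ to 3′ on the strand of the gene, for Mmp12 and Mmp3, the cluster genes with differences past 1.5-fold, for some of their neighbours, and for Adamts1. Capitals mark the AP-1 motif TGAGTCA or its reverse complement TGACTCA, and the TATA motif TATAAA. Mmp12 has 2 RefSeq starts, and the window of the second is given, since that of the first holds neither motif.
Mmp12 promoter, chr9:7347274-7347373, plus strand: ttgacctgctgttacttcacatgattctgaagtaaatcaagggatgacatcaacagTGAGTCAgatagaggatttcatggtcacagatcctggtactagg
Mmp3 promoter, chr9:7445722-7445821, plus strand: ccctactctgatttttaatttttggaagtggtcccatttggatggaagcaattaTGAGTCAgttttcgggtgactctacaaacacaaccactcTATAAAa
Mmp13 promoter, chr9:7272414-7272513, plus strand: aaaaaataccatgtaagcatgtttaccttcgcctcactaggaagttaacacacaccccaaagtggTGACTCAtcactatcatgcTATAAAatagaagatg
Mmp10 promoter, chr9:7502242-7502341, plus strand: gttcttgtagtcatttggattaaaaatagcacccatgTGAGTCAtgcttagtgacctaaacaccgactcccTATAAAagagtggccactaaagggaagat
Mmp1a promoter, chr9:7464041-7464140, plus strand: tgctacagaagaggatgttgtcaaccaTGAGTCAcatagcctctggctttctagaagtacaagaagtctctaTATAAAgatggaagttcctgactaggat
Mmp1b promoter, chr9:7388027-7388126, minus strand: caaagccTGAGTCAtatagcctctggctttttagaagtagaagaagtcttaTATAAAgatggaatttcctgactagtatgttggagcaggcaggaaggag
Adamts1 promoter, chr16:85803114-85803213, minus strand: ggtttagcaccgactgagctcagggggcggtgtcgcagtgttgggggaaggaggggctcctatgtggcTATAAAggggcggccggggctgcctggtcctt

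In the 250 bases before the start, on either strand, the AP-1 motif was found in 4.46% of all 32851 windows and the TATA motif in 12.4%. RefSeq windows were matched for 33 of the 48 genes (36 windows), of which 7 windows (19.4%) held the AP-1 motif and 10 (27.8%) the TATA motif. All 7 AP-1 windows belonged to the cluster on chromosome 9, whose 9 genes have 11 windows, and 6 of these windows (54.5%, against 0.721% of all windows) held both motifs. They belonged to Mmp3, Mmp7, Mmp10, Mmp13, Mmp1a and Mmp1b. The AP-1 motif began 46 bases before the start in Mmp3, 44 in Mmp12, 35 in Mmp13 and 63 in Mmp10, for Mmp12 at the second start only. The GC box GGGCGG (or CCGCCC) was in none of the 11 cluster windows, in 18 of the 36 windows (50.0%) and in 32.7% of all windows. Adamts1 had 3 GC boxes and a TATA motif 32 bases before its start, and no AP-1 motif. A motif here is a match of letters and no measure of binding.

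Of the 48 genes, 10 (20.8%) differed by at least 1.5-fold in at least 1 of the 3 comparisons, against 15.3% of all genes. These were Timp4, Mmp3, Mmp12, Mmp14, Adamts1, Adamts5, Adamts9, Adamts16, Adamts20 and Adamtsl4. In the other 38 the largest gap between any pair of arrays was 0.54. Most of the family gave low signal, and 32 of the 48 were on average not above the olfactory receptor reference. Of these 32, Adamts16 and Adamts20 passed 1.5-fold (6.25%), against 9.18% of all genes not above the reference. Of the 16 above the reference 8 did, against 21.7% of the 9561 genes above it. An identical value on all 3 arrays was deposited for 10 of the 48 genes (20.8%) and for 14.9% of all genes. The deposited values have 2 decimals.

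**Figure D1:**
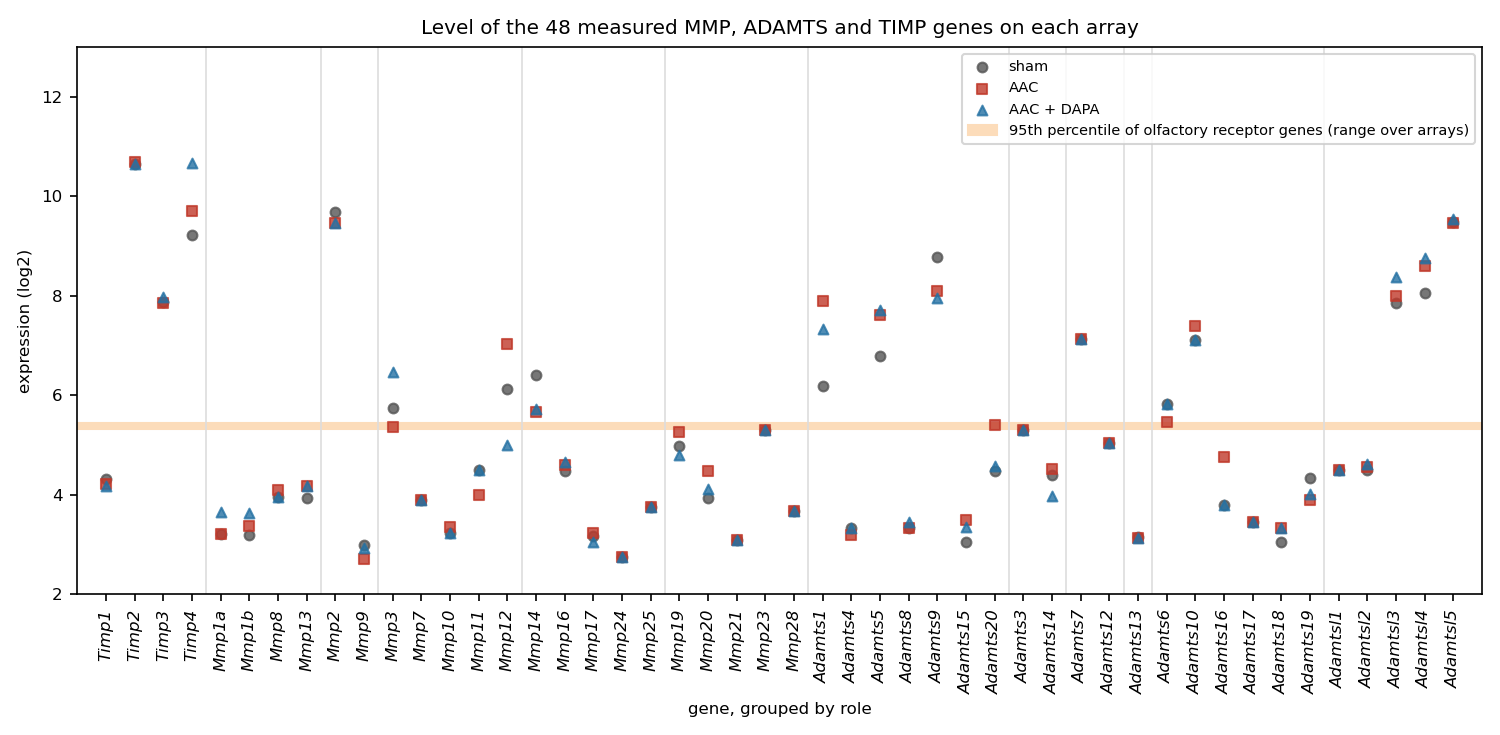
Log2 expression of the 48 genes, grouped by role, with 1 symbol per array (circle sham, square AAC, triangle AAC + DAPA). The band gives the 95th percentile of olfactory receptor genes over the 3 arrays. Most genes lie below the band with their symbols overlapping, while Timp4, Mmp3, Mmp12, Adamts1, Adamts5 and Adamts9 show visible gaps between arrays.

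Compared with the sham array, the AAC array was at least 1.5-fold higher for 5 of the 48 genes (10.4%), against 4.88% of all genes. They were Adamts1, Adamts16, Adamts20, Mmp12 and Adamts5. It was at least 1.5-fold lower for 2 (4.17%), Mmp14 and Adamts9, against 4.98% of all genes. Together 7 genes (14.6%) passed the threshold, against 9.86% of all genes. The median log2 difference of the 48 genes was 0, as it was over all genes.

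Compared with the AAC array, the AAC + DAPA array was at least 1.5-fold higher for 2 genes, Mmp3 and Timp4 (4.17%, against 4.16% of all genes). It was lower for 3, Mmp12, Adamts16 and Adamts20 (6.25%, against 4.18%). The 5 genes together made up 10.4% of the family, against 8.34% of all genes, a share near the background. Compared with sham, the AAC + DAPA array was higher for 5 genes (Timp4, Adamts1, Adamts5, Mmp3 and Adamtsl4), against 3.22% of all genes. It was lower for 3 (Mmp12, Adamts9 and Mmp14), against 3.38% of all genes. These 8 genes were 16.7% of the family, against 6.60% of all genes. The median was 0 in both comparisons, for the family and for all genes.

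**Figure D2:**
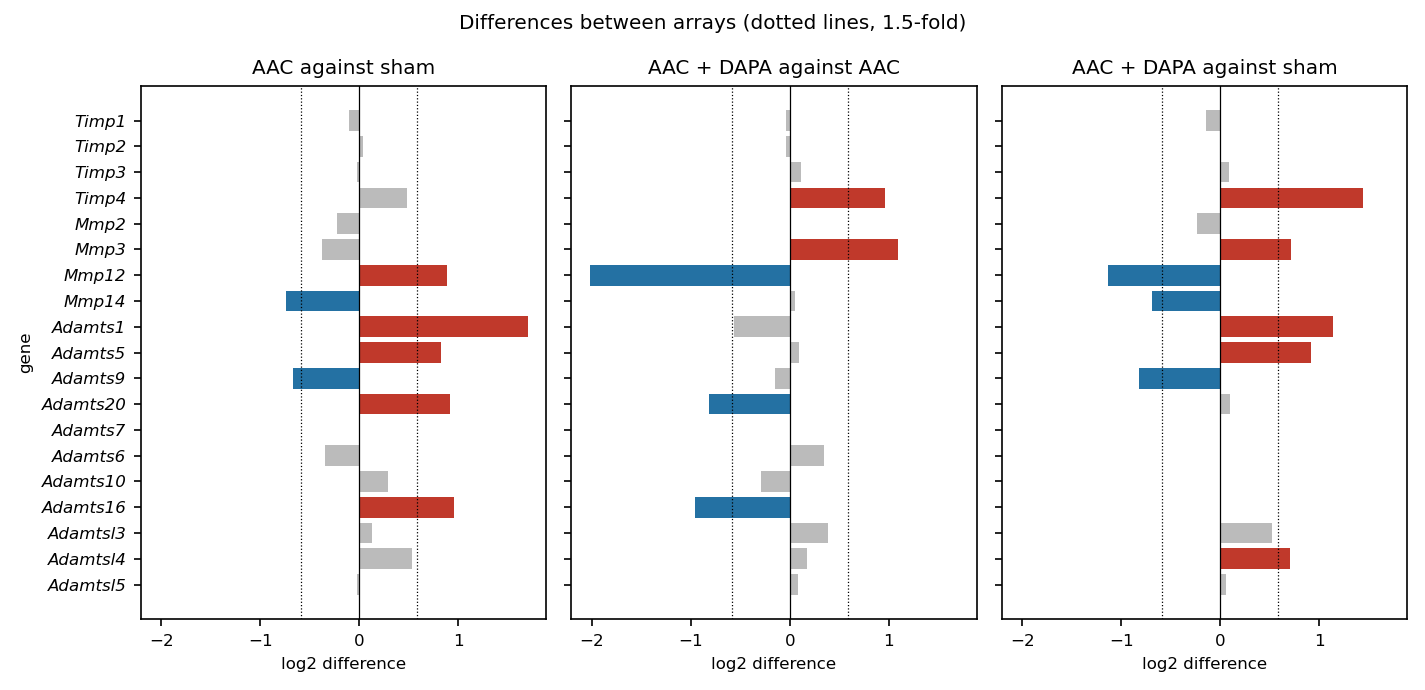
Log2 differences between arrays for the 4 TIMPs, the 10 genes past 1.5-fold in any comparison and the other genes above the median of all genes on all 3 arrays. Red bars are at least 1.5-fold higher, blue bars at least 1.5-fold lower, grey bars lie between the dotted lines. Mmp12 has the longest bar, downward in AAC + DAPA against AAC, and Adamts1 the longest upward bar, in AAC against sham.

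Among the inhibitors only Timp4 differed by 1.5-fold. Timp4, the TIMP known for its high expression in heart, was 9.22 on the sham array, 9.70 on the AAC array and 10.66 on the AAC + DAPA array. The AAC + DAPA array was the high one, 1.95-fold above AAC and 2.71-fold above sham. The AAC array was 1.39-fold above sham, short of the threshold. Timp2, which inhibits MMPs and also takes part in the activation of the Mmp2 precursor, was 10.65, 10.69 and 10.65 in the same order. Timp3, which binds to the matrix and inhibits ADAMTS proteases as well as MMPs, was 7.88, 7.86 and 7.97. Timp1, the inducible inhibitor often measured in fibrosis, was 4.31, 4.21 and 4.17, below the olfactory receptor reference on every array. For Timp1, Timp2 and Timp3 the arrays differed by at most 1.10-fold, and the sign of differences of 0.04 in Timp1 and Timp2 turned when the arrays were centred on their probe medians.

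Timp4 is also expressed in fat and in vessels, and markers of these tissues were examined beside it. Of 6 adipocyte markers measured, 2 were at least 1.5-fold higher in AAC + DAPA against AAC and none in AAC + DAPA against sham, and their summed level was 9.77, 8.99 and 9.87 (log2) on the sham, AAC and AAC + DAPA arrays. That sum came almost wholly from Cidea, a lipid droplet protein, at 9.66, 8.82 and 9.75. The other 5, with the defining adipocyte genes Adipoq and Plin1, stayed at or below 4.53. Of 8 endothelial markers none was 1.5-fold higher in any comparison, and Kdr, a receptor for vascular endothelial growth factor, was lower in AAC + DAPA at 13.59, 13.62 and 12.96. Their summed level was 14.78, 14.71 and 14.49. Of 10 smooth muscle and pericyte markers, 2 were higher and 1 lower in AAC against sham, 1 higher and none lower in AAC + DAPA against AAC, and 1 higher and 1 lower in AAC + DAPA against sham. Acta2, smooth muscle actin, was 15.25, 10.08 and 12.13, high on the sham array. Myh11, smooth muscle myosin, was 4.65, 5.56 and 5.28, and Rgs5, a pericyte gene, was 14.34, 15.08 and 14.84, both low on the sham array. The summed level of this list was 16.39, 15.99 and 15.75. Between sham and AAC + DAPA, where Timp4 was 2.71-fold apart, the adipocyte sum was nearly level. The endothelial and the smooth muscle and pericyte sums were lower, mainly with Kdr and Acta2, the highest genes of their lists on the sham array. The median log2 difference in this comparison was -0.05 for the endothelial and 0 for the smooth muscle and pericyte list. Rgs5 and Myh11 were higher in AAC + DAPA than in sham, so these sums do not stand for all markers. The part of these cells in the Timp4 values was not tested. In bulk tissue, more cells of a type and more RNA per cell cannot be told apart.

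The collagenases gave low signal throughout. Mmp1a, Mmp1b, Mmp8 and Mmp13, the genes grouped in this role, lay between 3.19 and 4.17 on all arrays, and none passed 1.5-fold in any comparison. Mmp1a and Mmp1b are similar in sequence, as their promoters above also show, so their probes may share signal. Of the gelatinases, which degrade denatured collagen and basement membrane, Mmp2 was 9.69 in sham and 9.46 in both AAC and AAC + DAPA. Mmp9, known from neutrophils and macrophages, was 2.98, 2.70 and 2.92, below the reference on every array. The constricted hearts were thus at most 1.17-fold below sham for Mmp2, well short of the threshold.

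Mmp12 and Mmp3 were the MMPs of the chromosome 9 cluster that passed the threshold, in opposite directions. Mmp12, the macrophage elastase, was 6.13 on the sham array, 7.02 on the AAC array and 5.00 on the AAC + DAPA array. The AAC array was high, 1.85-fold above sham, and the AAC + DAPA array was low, 4.06-fold below AAC and 2.19-fold below sham. The AAC + DAPA value lay below the olfactory receptor reference of that array, so the size of these folds is less certain than their direction on these arrays. Mmp3, stromelysin-1, which cleaves many matrix proteins and activates other MMP precursors, was 5.75, 5.37 and 6.46. Here the AAC + DAPA array was high, 2.13-fold above AAC and 1.64-fold above sham, and the AAC value lay below the reference. The other 7 cluster genes, 6 of which have an AP-1 or a TATA motif in their windows, differed by less than 1.5-fold in every comparison and lay between 3.19 and 4.48.

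Markers of the cells known to make Mmp12 moved with it in part. Of 11 macrophage markers, 8 were at least 1.5-fold higher in AAC against sham, with a median difference of 1.01. In AAC + DAPA against AAC 9 were lower, with a median of -0.90. In AAC + DAPA against sham 1 was higher and 1 lower, with a median of -0.03. Ccr2, a chemokine receptor of recruited monocytes, was 6.62 (sham), 9.46 (AAC) and 7.30 (AAC + DAPA). Mrc1, a receptor of resident macrophages, was 11.80, 13.20 and 11.92, and Lyz2, lysozyme, was 11.00, 12.13 and 10.97. All 3 stood high on the AAC array, and of the list only Ccr2 was also at least 1.5-fold above sham on the AAC + DAPA array. Their summed level was 12.79, 14.03 and 12.81, nearly level between sham and AAC + DAPA, where the log2 difference of Mmp12 was -1.13. Adgre1, a surface receptor gene that defines mouse macrophages, named here after its values were seen, was 6.41, 6.60 and 6.60. Of 9 neutrophil markers, 2 were higher in AAC against sham, S100a9 at 4.80, 6.68 and 5.01 and Retnlg at 3.57, 5.77 and 4.24. Both were lower in AAC + DAPA against AAC, and Retnlg was also higher in AAC + DAPA against sham. Of 3 red blood cell markers measured, 2 were likewise high on the AAC array. Alas2, the heme synthesis enzyme of red cell precursors, was 7.63, 11.92 and 8.63, and Slc4a1, the red cell anion exchanger, was 7.54, 8.92 and 7.99. Epb42 was 3.68 on all arrays. The part of these cells, and of blood, in the Mmp12 values was not tested.

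**Figure D3:**
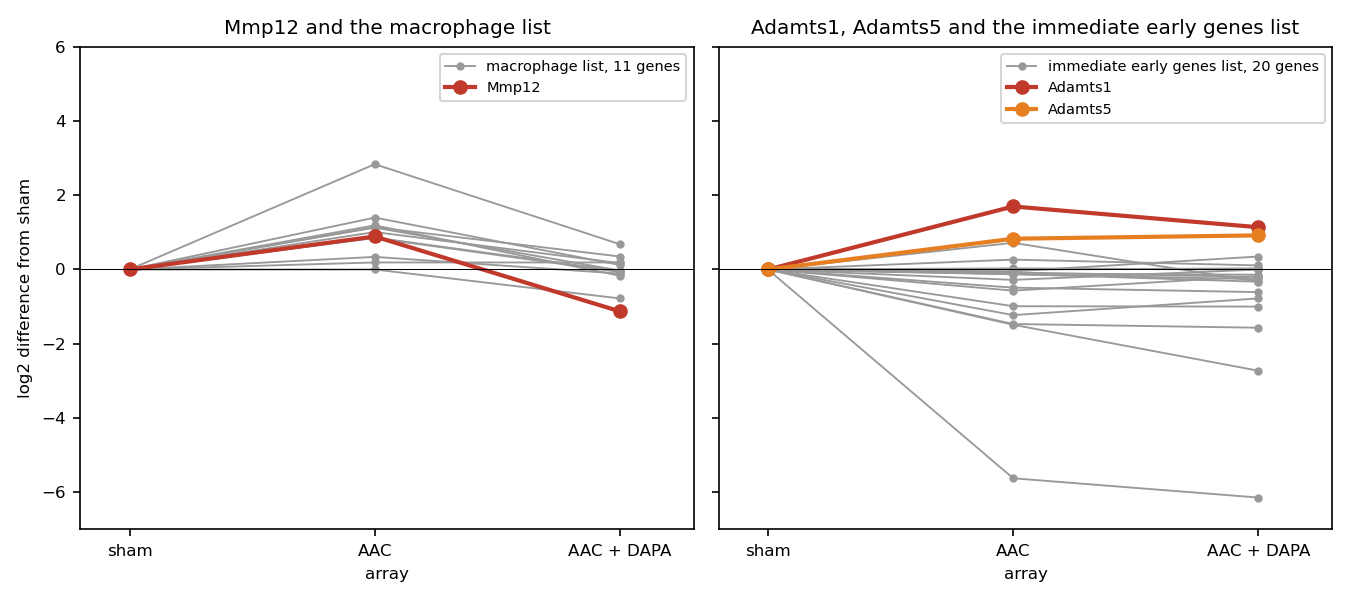
Log2 difference from the sham array on each array, for Mmp12 with the 11 macrophage markers (left) and for Adamts1 and Adamts5 with 20 immediate early genes (right). Mmp12 is high with most macrophage markers on the AAC array and lies below all of them on the AAC + DAPA array, at -1.13. Adamts1 and Adamts5 lie above every immediate early gene on both constricted arrays.

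Of 6 membrane-type MMPs, which act at the cell surface, 5 were measured (Mmp15 was not), and only Mmp14 passed the threshold. Mmp14, which activates the Mmp2 precursor and cleaves collagen, was 6.41 (sham), 5.67 (AAC) and 5.72 (AAC + DAPA). The sham array was the high one, with AAC 1.67-fold and AAC + DAPA 1.61-fold below it, and both constricted arrays just above the reference and 1.04-fold apart. Mmp16, Mmp17, Mmp24 and Mmp25 lay between 2.74 and 4.65. Mmp24 and Mmp25 had the same value on all 3 arrays. The remaining MMPs (Mmp7, Mmp10, Mmp11, Mmp19, Mmp20, Mmp21, Mmp23 and Mmp28) lay between 3.08 and 5.29, and none passed 1.5-fold. The widest of these differences was in Mmp20, the tooth enamel protease, with 3.94 in sham and 4.48 in AAC (chosen after its values were seen).

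Of 7 ADAMTS proteases that cleave proteoglycans, 3 were at least 1.5-fold higher and 1 lower in AAC against sham (4.88% and 4.98% of all genes). In AAC + DAPA against AAC none was higher and 1 lower (4.16% and 4.18% of all genes). In AAC + DAPA against sham 2 were higher and 1 lower (3.22% and 3.38% of all genes). Adamts20, 1 of the 3 higher in AAC and the 1 lower in AAC + DAPA against AAC, lay below the olfactory receptor reference on every array. Adamts1, which cleaves versican and aggrecan, was 6.19 on the sham array, 7.89 on the AAC array and 7.33 on the AAC + DAPA array. Both constricted arrays were above sham, by 3.25-fold in AAC and 2.20-fold in AAC + DAPA. AAC + DAPA was 1.47-fold below AAC, just short of the threshold. Adamts5, another protease of aggrecan and versican, was 6.79, 7.62 and 7.71. It too was above sham on both constricted arrays, by 1.78-fold and 1.89-fold, and these arrays differed by 1.06-fold. Adamts1 and Adamts5 are direct neighbours on chromosome 16, with no coding gene between them in RefSeq.

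Adamts9, a versican-cleaving protease with a known role in heart development in mice, differed in the opposite direction. It was 8.77 (sham), 8.10 (AAC) and 7.95 (AAC + DAPA). Both constricted arrays were below sham, by 1.59-fold and 1.77-fold. Adamts20, the closest relative of Adamts9, was 4.48, 5.40 and 4.58, with the AAC array 1.89-fold above sham and 1.77-fold above AAC + DAPA. All of its values lay below the olfactory receptor reference. Adamts4, Adamts8 and Adamts15 lay between 3.04 and 3.49 and did not pass the threshold. Adamts8 and Adamts15 are neighbours on chromosome 9.

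Adamts1 is known as a gene that responds quickly to stimuli, so 20 immediate early genes, which respond within minutes to stress or handling, were set beside it. In AAC against sham 1 was at least 1.5-fold higher and 5 lower. In AAC + DAPA against sham none was higher and 6 were lower. Nr4a3, a nuclear receptor, was 10.69 (sham), 5.06 (AAC) and 4.54 (AAC + DAPA), and Egr1, a zinc finger transcription factor, was 8.53, 7.04 and 5.80. Jun, an AP-1 subunit, was 9.22, 7.99 and 8.44, and Fosl2, another AP-1 subunit, was 6.23, 5.24 and 5.23. Nr4a3, Egr1, Jun and Fosl2 were high on the sham array, where Adamts1 and Adamts5 were low and Adamts9 and Mmp14 high. The list did not move as a whole, since 14 of the 20 lay within 1.5-fold in each comparison against sham. Among these, Fos was 3.77, 3.77 and 3.80, Junb 6.16, 6.08 and 5.96, and Dusp1 14.38, 14.27 and 14.24. Fosb, Fosl1 and Zfp36 had the same value on all arrays. Ier3, a stress response gene, was the one higher in AAC, at 8.15, 8.87 and 7.82. The part of this difference between arrays in the values of the proteases was not tested.

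Among the other ADAMTS proteases only Adamts16 passed the threshold. It was 3.80 (sham), 4.76 (AAC) and 3.80 (AAC + DAPA), so the AAC array was 1.95-fold above both others, with all values below the reference. Adamts7, which cleaves cartilage oligomeric matrix protein, was 7.13 on all 3 arrays. Adamts10, which binds fibrillin microfibrils, was 7.10, 7.39 and 7.10. Adamts6, its closest relative, was 5.82, 5.47 and 5.82. In both of these the sham and AAC + DAPA values were identical and the AAC array differed, upward in Adamts10 and downward in Adamts6. Adamts3 and Adamts14, which remove the N-propeptide of procollagens, lay between 3.97 and 5.31. Adamts2, the third gene listed in this role, was not measured. Adamts12, Adamts13 (the protease of von Willebrand factor), Adamts17, Adamts18 and Adamts19 lay between 3.05 and 5.04, and none passed 1.5-fold.

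The ADAMTS-like genes, whose proteins bind the matrix without cutting it, held 1 difference past the threshold among 5 genes. Adamtsl4, known to bind fibrillin-1, was 8.06 (sham), 8.59 (AAC) and 8.76 (AAC + DAPA). Both constricted arrays were above sham, by 1.44-fold in AAC and by 1.62-fold in AAC + DAPA. Adamtsl3 was 7.86, 7.99 and 8.38, with AAC + DAPA 1.43-fold above sham. Adamtsl5 was 9.49, 9.47 and 9.55, within 1.06-fold on all arrays. Adamtsl1 and Adamtsl2 lay between 4.49 and 4.62.

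Genes at least 1.5-fold beyond both other arrays were counted for each array. The sham array was highest for Adamts9 and Mmp14 and lowest for Adamts1 and Adamts5. The AAC array was highest for Adamts16, Adamts20 and Mmp12 and lowest for none. The AAC + DAPA array was highest for Timp4 and Mmp3 and lowest for Mmp12. As shares of the 48 genes, sham was highest for 4.17% and lowest for 4.17%, against 1.71% and 1.46% of all genes. The AAC array was highest for 6.25% and lowest for 0%, against 2.27% and 1.92% of all genes. The AAC + DAPA array was highest for 4.17% and lowest for 2.08%, against 1.19% and 0.928% of all genes. Each share of the family rests on at most 3 genes.

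Genes that act on these proteases were examined as a list of 25 regulators, of which 23 were measured. In AAC against sham 1 was at least 1.5-fold higher and 1 lower, in AAC + DAPA against AAC 2 were higher and none lower, and in AAC + DAPA against sham 3 were higher and none lower. Thbs2, a thrombospondin that binds MMPs and promotes their clearance, was 8.00 (sham), 8.75 (AAC) and 9.20 (AAC + DAPA). Both constricted arrays were past 1.5-fold above sham, whereas for Timp4 only AAC + DAPA was. Pcolce2, an enhancer of procollagen processing, was 8.75, 8.75 and 9.52, high on the AAC + DAPA array. Pcolce, its relative, was 7.02, 6.13 and 6.97, low on the AAC array. Itgav, an integrin subunit, was 9.72, 9.89 and 10.37. The median difference of the 23 genes was 0 in each comparison.

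Genes of matrix proteins that the proteases cleave were lower rather than higher in RNA where they passed the threshold against sham. Of 24 measured, 4 were lower in AAC (Col3a1, Col4a1, Lum and Hspg2) and 5 in AAC + DAPA (Col3a1, Vcan, Col5a1, Hspg2 and Lum). None was higher in either. These were 16.7% and 20.8% of the list, against 4.98% and 3.38% of all genes lower in the same comparisons. Centring the arrays on their probe medians raised the count in AAC from 4 to 7. Vcan, versican, the substrate of Adamts1, Adamts5 and Adamts9, was 8.18 (sham), 8.21 (AAC) and 7.05 (AAC + DAPA), low on the AAC + DAPA array. Col3a1, a fibrillar collagen, was 10.25, 9.14 and 8.62, high on the sham array. In AAC + DAPA against AAC 3 were higher (Col4a1, Lamc1 and Bgn) and 1 lower (Vcan). Col4a1, a basement membrane collagen, was 6.94, 6.02 and 6.84, low on the AAC array. The median difference of the 24 genes was -0.19 in AAC against sham, -0.01 in AAC + DAPA against AAC and -0.14 in AAC + DAPA against sham, beside 0 over all genes. Of 9 fibroblast markers, which include some of these genes, 2 were lower and none higher in each of AAC and AAC + DAPA against sham, with median differences of -0.30 and -0.22. Their summed level, 18.02, 18.18 and 18.11, came almost wholly from Dcn, decorin, at 17.68, 17.97 and 17.87, and does not follow the other markers. The part of fibroblast number in the values of the proteases was not tested.

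Of 17 related metzincins, the wider family of ADAM, meprin and tolloid proteases, only Adam19 passed the threshold. Adam19, a membrane-bound sheddase, was 7.93 (sham), 6.31 (AAC) and 6.09 (AAC + DAPA), high on the sham array as Adamts9 and Mmp14 were. The others did not reach 1.5-fold in any comparison. The median difference of the 17 genes was 0 in AAC against sham, 0.06 in AAC + DAPA against AAC and 0 in AAC + DAPA against sham.

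**Figure D4:**
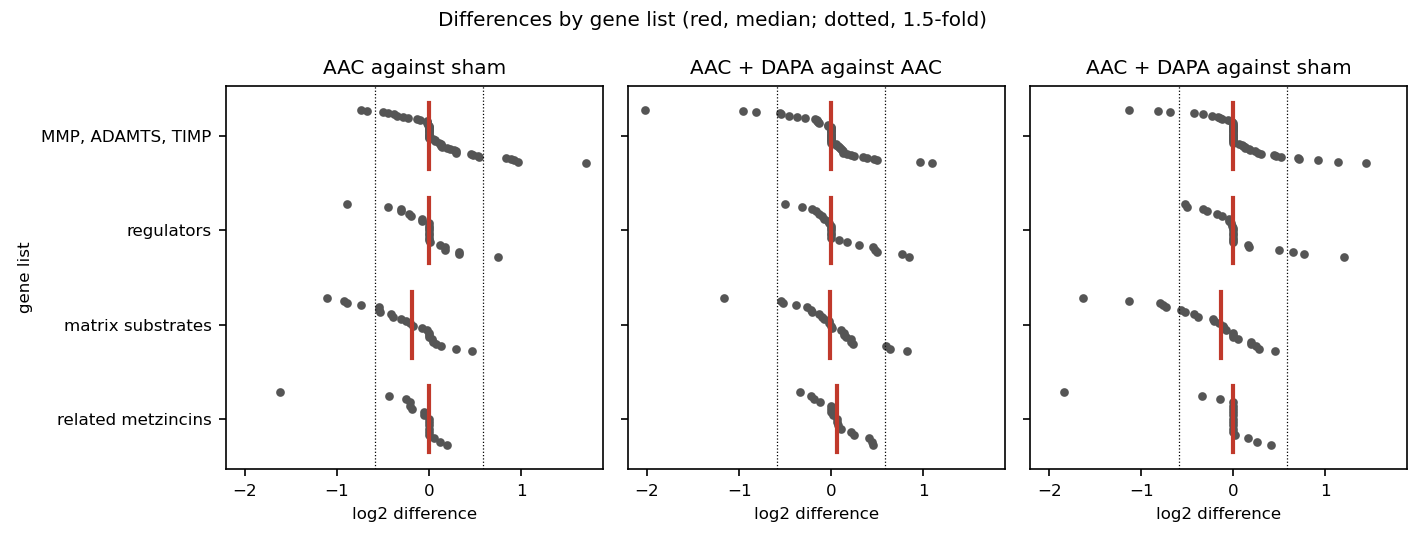
Log2 differences of every measured gene in 4 lists (48 MMP, ADAMTS and TIMP genes, 23 regulators, 24 matrix substrates, 17 related metzincins) for the 3 comparisons. Each point is a gene, the red line is the list's median and the dotted lines mark 1.5-fold. Medians of the 4 lists lie between -0.19 and 0.06, and the matrix substrates past the threshold against sham lie on the lower side.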

How the data were processed

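Total RNA of mouse heart was labelled with biotin and hybridised to 3 Affymetrix arrays, 1 per group. The authors deposited log2 expression values, 1 column per array and 22206 probes, already normalized. Affymetrix Expression Console is named in the submitters' processing notes, but how probes were summarized and arrays normalized is not given. The study's methods name an array for human genes, whereas the platform annotation of these probes names mouse genes. Of the probes, 19572 (88.1%) name 1 gene, 0 name several and 2634 name none. Probes naming 1 gene were used, and the mean log2 value was taken per gene. All 48 symbols matched the RefSeq gene table of GRCm38.p6, from which chromosomes, gene order and promoter windows were taken.

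Differences between arrays were computed with Python 3.11.15, numpy 2.4.6 and pandas 2.3.3, plots were drawn with matplotlib 3.10.9, and the counting of genes past 1.5-fold was tested on simulated data. There was no test, since each group has 1 array, and the number of arrays limits the precision. Members named with values are all 4 Timp genes, those past 1.5-fold in any comparison and those above the median of all genes on all 3 arrays. Others are given by subfamily. Of the other gene lists, up to 6 genes past 1.5-fold were named by size of their difference. Their counts are to be read beside the shares of all genes past 1.5-fold in either direction. These were 9.86% in AAC against sham, 8.34% in AAC + DAPA against AAC and 6.60% in AAC + DAPA against sham. The members, the gene lists and the rules were chosen with earlier results of these data known. Alternatives were 3 array scalings (median centring over probes, quantile normalization, median centring over the genes above the median level), the probe with the highest mean, 2 filters on low values and a 2-fold threshold.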

Additional observations from a re-analysis of the deposited data

How the results depend on the processing

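Of the 57 log2 differences of the named members, none changed its side of 1.5-fold under the 3 array scalings. Taking the probe of highest mean could not change a member, since each has 1 probe. Centring on probe medians turned the sign of 3, in Timp1 and Timp2, none larger than 0.04, and no scaling moved a member by more than 0.07. The counts of members depended on the threshold. At 2-fold, 1 gene (Adamts1) was higher and 0 were lower in AAC against sham, 1 in all (2.67% of all genes). In AAC + DAPA against AAC, 1 was higher (Mmp3) and 1 lower (Mmp12), 2 in all (1.99% of all genes). In AAC + DAPA against sham, 2 were higher (Timp4 and Adamts1) and 1 lower (Mmp12), 3 in all (1.72% of all genes). When genes had to lie above the olfactory receptor reference on the higher array, Adamts16 and Adamts20 dropped out by construction. Of the 48 members, 32 lay above the reference on no array and could not pass. This left 3 higher in AAC against sham (7.18% of all genes that passed this filter). In AAC + DAPA against AAC it left 1 lower (5.52%) and 3 in all (11.6%). There Mmp12 and Mmp3 passed only through the array where each was high, so these counts are no support for their differences. Of 63 member counts, which include those with the probe of highest mean, 12 were classed as moved and 51 as the same. Some changes were classed as the same. For example, the members past 1.5-fold in AAC against sham went from 7 to 6 and to 5 under the 2 filters on low values. Of the counts of other lists 6 were classed as moved and 378 as the same. Among those that moved were the matrix substrates lower in AAC against sham, 4 as deposited and 7 with arrays centred on their probe medians. With that centring Col5a1, Col4a2 and Tnc also passed.

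No paired analysis was possible because each group has 1 array, and leaving out an array leaves a group empty. The limits are the single array per group, the unstated pooling of mice, and the sham and AAC + DAPA arrays without the Y-linked signal their labels call for. A further limit is the low signal of most of the family. At such signal a difference short of the threshold was not shown to be absent, and those past it, in Adamts16 and Adamts20, are uncertain.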
